A study of Mus musculus with 12 samples.

Results

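Light-chain V genes are the germline segments that supply most of the variable domain of an immunoglobulin light chain, and their usage was read here from RNA counts of splenic B cells. The genes were all rows whose GENCODE mouse symbol begins with Igkv or Iglv, without those annotated as pseudogenes, and with at least 100 counts summed over the 12 libraries. That left 98 genes, 95 kappa (Igkv) and 3 lambda (Iglv), out of 103 such genes and of 46078 genes in the file. The 60 V pseudogenes were left out. The genes just inside the minimum were Igkv4-71 with 108 counts, Igkv19-93 with 122, Igkv5-37 with 139, Igkv3-9 with 153 and Igkv18-36 with 154, and the 5 outside it were Igkv2-137 with 88, Igkv20-101-2 with 83, Igkv1-131 with 61, Igkv8-26 with 32 and Igkv1-35 with 8. The summed count over all libraries chose the genes and is therefore not a result, whereas differences between the groups were not used in that choice.

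The libraries came from marginal zone (MZ) and follicular (FO) B cells of C57BL/6 mice aged 8 to 12 weeks, separated from spleen with a magnetic isolation kit. Each of the MZ CKO, MZ Control, FO CKO and FO Control groups held 3 libraries. CKO mice carried VAVcre together with a conditional Zbtb24 allele and have a genotype tag of Zbtb24-/-, and control mice carried VAVcre and are tagged WT. VAVcre drives Cre recombinase in blood-forming cells, so deletion is not restricted to mature B cells, and the transgene is present in all 4 groups. The labels give 6 mouse numbers, each found once among MZ and once among FO libraries, and that both libraries of a number are from the same animal is an inference from those labels.

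Each developing B cell joins 1 V segment to a J segment, first usually at the kappa locus and, where that fails or yields an autoreactive receptor, by further kappa joining or at the lambda locus. The finished light chain is tested against the heavy chain for self-reactivity, and the cell that survives carries that chain on its surface. FO B cells recirculate through the lymphoid follicles and answer protein antigens with T cell help, and MZ B cells stay beside the marginal sinus of the spleen and answer blood-borne antigens rapidly. Mouse B cells use kappa far more often than lambda chains. The first complementarity-determining region of the light chain (CDR-L1) is encoded wholly in the V segment and differs in length between V families.

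Usage is the share of a gene in all Igkv plus Iglv counts of a library, pseudogenes left out. These summed to 30324 to 45238 counts in the MZ libraries and 39232 to 51407 in the FO libraries, of 36340116 to 44629250 gene counts per library. The 98 genes held 99.9% of them in every library. Zbtb24 was at 46.4, 41.8 and 41.9 CPM, gene counts scaled by TMM-normalized library size, in MZ CKO and 49.1, 53.0 and 54.4 CPM in MZ Control libraries, and at 48.4, 46.9 and 50.04 CPM in FO CKO and 62.5, 60.9 and 60.8 CPM in FO Control libraries. All CKO libraries lay below all control libraries of the same cell type, but neither difference passed the test across all genes (log2 -0.27 with adjusted p = 1 in MZ and log2 -0.34 with adjusted p = 0.194 in FO B cells). The deleted part of the gene was not analysed here. The cell type labels matched their markers: 8 of 8 MZ B cell markers were higher in MZ than in FO libraries, and 5 of 6 FO B cell markers were lower, the exception being Cxcr5.

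Of the 98 genes, 30 had a mean usage of at least 1% and 15 stayed under 0.1%, and the median was 0.515%. The order of the 10 most used genes was Iglv1, Iglv3, Iglv2, Igkv1-117, Igkv6-15, Igkv1-135, Igkv10-96, Igkv1-110, Igkv14-111 and Igkv3-4. Mean usage over the 12 libraries was 10.8% for Iglv1, 9.17% for Iglv3, 3.68% for Iglv2, 3.51% for Igkv1-117, 3.31% for Igkv6-15, 3.30% for Igkv1-135, 3.23% for Igkv10-96, 2.89% for Igkv1-110, 2.68% for Igkv14-111 and 2.28% for Igkv3-4. The 5 genes from Iglv2 to Igkv10-96 lay closer to each other than the range of each of them over the libraries. V exons were 294 to 324 bases long, and dividing counts by that length kept the same 10 genes at the top, with Igkv10-96 and Igkv1-135 changing places.

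**Figure D1:**
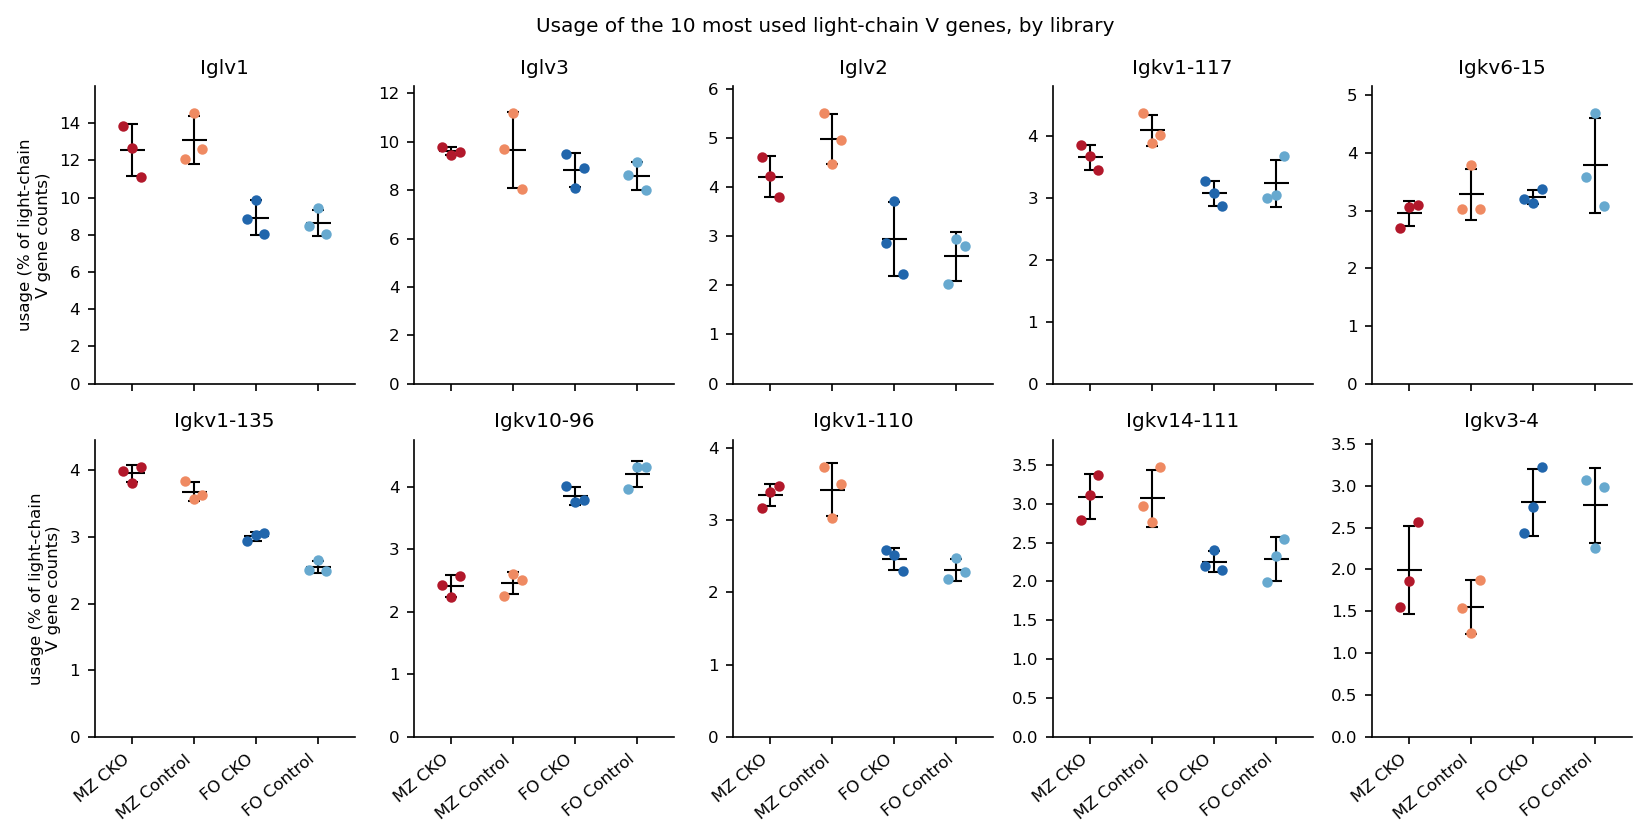
Usage, as percent of all light-chain V gene counts, of the 10 most used V genes in each library. Points are the 3 libraries of each group, and black bars are the mean ± SD. Iglv1, Iglv2, Igkv1-135, Igkv1-110 and Igkv14-111 lie higher in every MZ than in every FO library, and Igkv10-96 lies lower.

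MZ B cells used lambda V genes more than FO B cells did. The Iglv share was 28.3, 26.3 and 24.4% in MZ CKO, 27.3, 30.2 and 25.6% in MZ Control, 21.2, 21.7 and 19.2% in FO CKO and 19.1, 21.5 and 18.9% in FO Control libraries. Every MZ library lay above every FO library, at 27.0 ± 2.04% against 20.3 ± 1.34% (SD, n = 6 each). Means over MZ or FO libraries are given in this way throughout, and sums over genes have no p. Shares of RNA are not shares of cells: fewer cells of a kind and less RNA per cell cannot be told apart in these bulk libraries.

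Iglv1, which carried most of this difference, made up 13.9, 12.7 and 11.1% in MZ CKO, 12.1, 14.5 and 12.6% in MZ Control, 8.83, 9.89 and 8.03% in FO CKO and 8.45, 9.42 and 8.05% in FO Control libraries. Counting error was small beside that spread, with a 95% Wilson interval of 13.5 to 14.2% in the first MZ CKO library. Iglv1 was higher in the MZ library of all 6 mice, by 1.28 to 1.57 times. In edgeR's quasi-likelihood test with Benjamini-Hochberg adjustment over all genes tested, its difference over all mice was just past the threshold of 0.05 (log2 0.37 in CPM, SE 0.13, adjusted p = 0.0416). The call was lost without MZ CKO replicate 1 (adjusted p = 0.0892) or 2 (0.0707), MZ Control replicate 2 (0.0911), FO CKO replicate 1 (0.0763), 2 (0.0589) or 3 (0.0874) and FO Control replicate 1 (0.0861) or 3 (0.0932), and with no filter on low counts (0.108). Over all 18 alternatives the adjusted p ran between 4.63e-06 and 0.108. The main fit did not pair the MZ and FO libraries of a mouse. The call was kept in 9 alternatives, among them the fit with the mouse as a block.

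Iglv2 made up 4.62, 4.22 and 3.79% in MZ CKO, 5.504, 4.47 and 4.95% in MZ Control, 2.86, 3.72 and 2.22% in FO CKO and 2.02, 2.95 and 2.801% in FO Control libraries. Its level rose in MZ B cells (log2 0.55 in CPM, SE 0.15, adjusted p = 0.0143). Iglv3 was at 9.63 ± 0.998% in MZ and 8.71 ± 0.589% in FO libraries, which overlapped, and it did not pass (log2 -0.04 in CPM, SE 0.12, adjusted p = 0.8395). On the usage scale the sign of Iglv3 was the opposite (log2 0.14, adjusted p = 0.164), and its usage was higher in MZ in all 6 mice.

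A stretch of the V exons of Iglv1 (ENSMUSG00000076934) and Iglv2 (ENSMUSG00000076940) is shown because both rose and a read may not tell them apart, since they are 97.05% identical over the exon (GENCODE release M21, GRCm38, chr16:19085017-19085316 and chr16:19260401-19260700, both on the minus strand). Capitals mark the codons of CDR-L1, which are the same in both.
Iglv1: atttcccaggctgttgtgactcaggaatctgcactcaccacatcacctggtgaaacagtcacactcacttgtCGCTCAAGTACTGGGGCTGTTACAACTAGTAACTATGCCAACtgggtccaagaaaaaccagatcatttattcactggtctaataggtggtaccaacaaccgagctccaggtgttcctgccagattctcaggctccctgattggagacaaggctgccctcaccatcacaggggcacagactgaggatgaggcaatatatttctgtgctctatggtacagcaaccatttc
Iglv2: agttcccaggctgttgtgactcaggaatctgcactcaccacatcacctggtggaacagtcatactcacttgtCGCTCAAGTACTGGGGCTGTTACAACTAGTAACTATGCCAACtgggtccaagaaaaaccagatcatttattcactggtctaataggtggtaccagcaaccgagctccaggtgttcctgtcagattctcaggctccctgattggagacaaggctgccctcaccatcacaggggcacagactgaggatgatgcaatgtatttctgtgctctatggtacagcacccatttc

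The constant genes gave the same order of groups from separate counts. The share of Iglc in Igkc plus Iglc counts was 32.1 ± 2.05% in MZ CKO, 33 ± 0.231% in MZ Control, 23.2 ± 0.917% in FO CKO and 21.8 ± 1.52% in FO Control libraries (SD, n = 3 each). Among the 14 tested constant and joining genes of the light chains, 3 rose and 8 fell in MZ libraries, where 20.3% of all genes tested rose and 18.6% fell, with a median log2 of -0.36 against -0.01 for all genes. Iglc2 was at 389.6, 306 and 298 CPM in MZ CKO, 315, 334 and 303 CPM in MZ Control, 252, 263 and 283 CPM in FO CKO and 232, 239.7 and 231 CPM in FO Control libraries (log2 0.38 in CPM, SE 0.06, adjusted p = 0.000204). Iglc1 rose by 0.56 on the log2 scale (SE 0.10, adjusted p = 0.000810) and Iglj1 by 0.57 (SE 0.11, adjusted p = 0.000754). Igkc, the only kappa constant gene, fell (log2 -0.36 in CPM, SE 0.07, adjusted p = 0.000760). Counts of the lambda constant genes are uncertain, since these genes are close copies of each other.

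**Figure D2:**
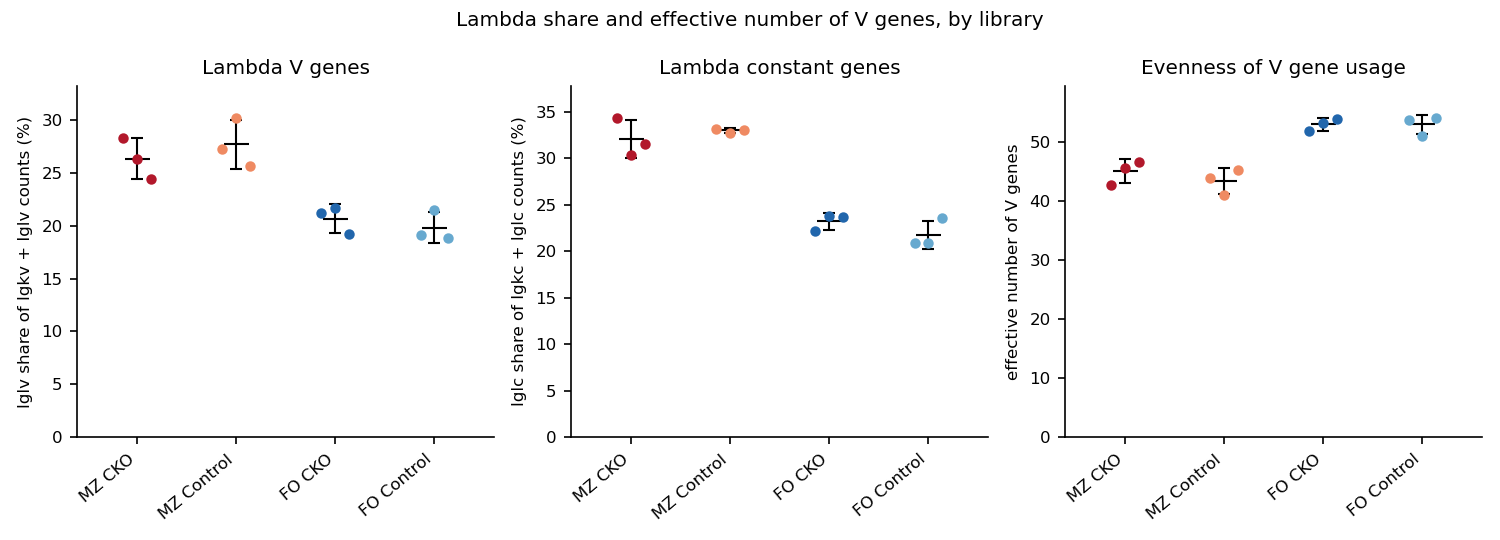
Left, share of Iglv in light-chain V counts; middle, share of Iglc in light-chain constant counts; right, effective number of V genes, for each library. Points are the 3 libraries of each group and black bars the mean ± SD; MZ libraries hold 24.4 to 30.2% Iglv and FO libraries 18.9 to 21.7%.

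Usage was also less even in MZ B cells. The effective number of V genes, the exponential of the Shannon entropy of usage, was 42.8, 45.7 and 46.7 in MZ CKO, 44.0, 41.1 and 45.4 in MZ Control, 51.9, 53.3 and 54.0 in FO CKO and 53.8, 51.1 and 54.1 in FO Control libraries. The ranges of MZ and FO libraries did not overlap. Counted over Igkv genes alone it was 55.5 ± 0.842 in MZ and 60.1 ± 1.01 in FO libraries (SD, n = 6 each). The 10 most used genes of each library held 49.6 ± 1.70% of V counts in MZ and 41.6 ± 1.20% in FO libraries. Iglv1 led all 6 MZ libraries, at 11.1 to 14.5%.

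The comparison of MZ with FO B cells asks which V genes the subsets use differently. All 98 V genes passed the filter on low counts in the fit of all 12 libraries, which had genotype as a term. There 10 of 98 V genes rose and 48 fell in MZ B cells in CPM, where 20.3% of the 18546 genes tested rose and 18.6% fell. The share of V genes that fell was thus above that of all genes and the share that rose below it. The median log2 difference was -0.40 for the V genes and -0.01 for all genes. Light-chain V counts as a whole made up 0.0943 ± 0.00901% of gene counts in MZ and 0.112 ± 0.00736% in FO libraries (SD, n = 6 each). A V gene with equal usage in both subsets would therefore lie lower in MZ libraries in CPM. Whether the lower total reflects a fall common to all V genes was not tested. With library sizes set to the light-chain V counts, which puts the test on the usage scale, 17 V genes rose and 39 fell, where 31.5% and 7.43% of all genes did. That scaling moved the median of all genes to 0.18. Of the V genes, 10 rose and 39 fell on both scales, 9 fell in CPM alone, 7 rose in usage alone and 0 were called in opposite directions.

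The largest rise among V genes with at least 0.2% usage was that of Igkv2-109, and both members of the Igkv2 family passed on both scales. Igkv2-109 made up 2.05, 2.33 and 3.27% in MZ CKO, 2.78, 2.11 and 3.25% in MZ Control, 1.19, 1.302 and 1.36% in FO CKO and 0.914, 0.862 and 1.16% in FO Control libraries. All MZ libraries lay above all FO libraries, and the ratio within a mouse was 1.72 to 3.04. Its level rose by 1.03 on the log2 CPM scale (SE 0.10, adjusted p = 5.93e-07). Igkv2-112, at 0.608 ± 0.109% in MZ and 0.316 ± 0.0327% in FO libraries, rose as well (log2 0.74 in CPM, SE 0.11, adjusted p = 7.05e-05).

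In the Igkv8 family 3 of 9 members rose and 1 fell in CPM, where 20.3% of all genes rose and 18.6% fell. On the usage scale 6 rose and 1 fell, where 31.5% and 7.43% of all genes did. In a family of 9, the counts in CPM lie near the shares of all genes. Igkv8-27 made up 2.197, 1.89 and 1.598% in MZ CKO, 1.81, 1.71 and 1.95% in MZ Control, 1.02, 1.004 and 1.105% in FO CKO and 0.989, 1.04 and 0.918% in FO Control libraries, with no overlap between MZ and FO (log2 0.69 in CPM, SE 0.11, adjusted p = 0.000131). Igkv8-24 averaged 2.27 ± 0.222% in MZ and 1.33 ± 0.172% in FO libraries (log2 0.58 in CPM, SE 0.08, adjusted p = 4.29e-05). Igkv8-16, a rarer gene at 0.293 ± 0.0485% in MZ and 0.182 ± 0.0462% in FO libraries, passed with an adjusted p of 0.0359. Its call was lost without MZ CKO replicate 1 (adjusted p = 0.0529), 2 (0.0537) or 3 (0.0575), MZ Control replicate 2 (0.101) or 3 (0.0541), FO CKO replicate 1 (0.0812) and FO Control replicate 1 (0.0863) or 3 (0.0844), and the alternatives ran between 0.00183 and 0.101. The call was kept with the mouse as a block.

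In the Igkv1 family 2 of 8 members rose in CPM and 3 on the usage scale, and 0 fell on either; the shares that rose lie near the 20.3% and 31.5% of all genes. Igkv1-135, the most used kappa gene of the MZ CKO libraries, made up 3.998, 3.81 and 4.06% in MZ CKO, 3.84, 3.57 and 3.63% in MZ Control, 2.94, 3.04 and 3.06% in FO CKO and 2.504, 2.65 and 2.49% in FO Control libraries. The MZ and FO ranges did not overlap (log2 0.27 in CPM, SE 0.07, adjusted p = 0.00509). Igkv1-110, at 3.38 ± 0.254% in MZ and 2.39 ± 0.1602% in FO libraries, rose by 0.31 (log2 CPM, SE 0.07, adjusted p = 0.00180). Igkv1-117, at 3.87 ± 0.312% in MZ and 3.15 ± 0.287% in FO libraries, did not pass in CPM (log2 0.11 in CPM, SE 0.07, adjusted p = 0.239) and passed on the usage scale (log2 0.29, adjusted p = 0.00557), with a range of 0.00557 to 0.535 over the alternatives. Igkv14-111, of another family, was at 3.08 ± 0.296% in MZ and 2.27 ± 0.197% in FO libraries (log2 0.25 in CPM, SE 0.06, adjusted p = 0.00327). It was the only one of the 4 Igkv14 genes that rose. In that family 3 genes fell in CPM and 1 on the usage scale, where 18.6% and 7.43% of all genes fell.

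The largest fall among V genes with at least 0.2% usage in the higher subset was that of Igkv4-51. It made up 0.155, 0.166 and 0.266% in MZ CKO, 0.102, 0.166 and 0.125% in MZ Control, 0.572, 0.593 and 0.724% in FO CKO and 0.571, 0.487 and 0.545% in FO Control libraries. The MZ libraries lay well below the FO libraries, at 0.178 to 0.368 times the FO usage of the same mouse (log2 -2.04 in CPM, SE 0.16, adjusted p = 7.63e-08). Counting error is wider at this level, with a 95% Wilson interval of 0.123 to 0.196% in the first MZ CKO library. Of the 26 Igkv4 genes, 15 fell in CPM and 12 in usage, where 18.6% and 7.43% of all genes fell. On either scale 0 of them rose, where 20.3% of all genes rose in CPM and 31.5% in usage. Igkv4-72, at 0.636 ± 0.0463% in MZ and 1.12 ± 0.0783% in FO libraries (log2 -1.01 in CPM, SE 0.09, adjusted p = 1.74e-07), and Igkv4-50, at 0.328 ± 0.0300% in MZ and 0.594 ± 0.161% in FO libraries (log2 -1.03 in CPM, SE 0.14, adjusted p = 2.45e-05), were among them.

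The gene with the largest rise and that with the largest fall are shown by a stretch of their V exons (ENSMUSG00000105606 and ENSMUSG00000094993, GENCODE release M21, GRCm38, chr6:68302859-68303158 on the plus strand for Igkv2-109 and chr6:69681406-69681705 on the minus strand for Igkv4-51). Capitals mark the codons of CDR-L1, 16 in Igkv2-109 and 12 in Igkv4-51.
Igkv2-109: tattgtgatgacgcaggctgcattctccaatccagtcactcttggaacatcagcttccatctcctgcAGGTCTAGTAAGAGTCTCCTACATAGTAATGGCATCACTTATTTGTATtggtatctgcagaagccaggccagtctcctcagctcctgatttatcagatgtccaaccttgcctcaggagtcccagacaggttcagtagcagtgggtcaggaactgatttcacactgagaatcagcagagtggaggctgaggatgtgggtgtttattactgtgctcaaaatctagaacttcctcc
Igkv4-51: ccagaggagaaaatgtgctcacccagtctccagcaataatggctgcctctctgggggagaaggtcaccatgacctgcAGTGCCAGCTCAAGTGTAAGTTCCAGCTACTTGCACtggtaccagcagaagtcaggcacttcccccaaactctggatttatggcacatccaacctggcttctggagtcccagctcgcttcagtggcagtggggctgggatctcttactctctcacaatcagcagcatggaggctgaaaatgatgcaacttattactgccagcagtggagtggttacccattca

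In the Igkv3 family, which holds the V gene nearest to Igkc, 7 of 9 members fell in CPM, 6 fell on the usage scale and 0 rose on either. Of all genes, 18.6% fell and 20.3% rose in CPM, and 7.43% fell and 31.5% rose on the usage scale. Its summed usage was 5.38, 6.32 and 7.95% in MZ CKO, 5.53, 4.87 and 7.06% in MZ Control, 8.95, 9.32 and 11.6% in FO CKO and 11.6, 8.98 and 11.9% in FO Control libraries. Igkv3-2 was at 1.14, 1.12 and 1.66% in MZ CKO, 1.103, 1.07 and 1.43% in MZ Control, 2.22, 1.93 and 2.61% in FO CKO and 2.74, 2.25 and 2.98% in FO Control libraries, and the MZ and FO ranges did not overlap (log2 -1.16 in CPM, SE 0.11, adjusted p = 5.57e-07). Igkv3-7 fell by 1.27 on the log2 CPM scale (SE 0.14, adjusted p = 2.58e-06), Igkv3-1 fell by 1.17 (SE 0.14, adjusted p = 7.61e-06) and Igkv3-10 fell by 0.94 (SE 0.11, adjusted p = 7.80e-06). Igkv3-4, the most used of the family, was at 1.77 ± 0.456% in MZ and 2.79 ± 0.38% in FO libraries (log2 -0.86 in CPM, SE 0.11, adjusted p = 2.20e-05).

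Beside those in Igkv14 given above, falls were also found in the Igkv5, Igkv6, Igkv12, Igkv13, Igkv17 and Igkv10 families. The counts of these families stand beside 18.6% of all genes that fell and 20.3% that rose in CPM. On the usage scale 7.43% of all genes fell and 31.5% rose. In Igkv5, 4 of 5 genes fell in CPM and 2 in usage, and 0 rose. In Igkv6, 6 of 9 genes fell and 0 rose in CPM, and 5 fell and 1 rose on the usage scale. Igkv6-25 was at 0.433 ± 0.0925% in MZ and 0.881 ± 0.178% in FO libraries (log2 -1.21 in CPM, SE 0.16, adjusted p = 1.48e-05), and Igkv6-14 at 0.181 ± 0.0475% in MZ and 0.359 ± 0.0530% in FO libraries (log2 -1.18 in CPM, SE 0.17, adjusted p = 5.37e-05). Igkv6-15, the most used of that family, was at 3.12 ± 0.361% in MZ and 3.51 ± 0.607% in FO libraries and did not pass (log2 -0.36 in CPM, SE 0.14, adjusted p = 0.0677). It passed with the mouse as a block (adjusted p = 2.57e-06), with the non-robust fit (0.0454), with DESeq2 (0.0205), without MZ Control replicate 2 (0.0248) and without FO Control replicate 3 (0.0171), and the alternatives ran between 2.57e-06 and 0.181.

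All 6 Igkv12 genes fell on both scales, among them Igkv12-89 (log2 -0.86 in CPM, SE 0.15, adjusted p = 0.000319). Both Igkv13 genes fell, and Igkv13-85 was at 0.283 ± 0.0527% in MZ and 0.539 ± 0.106% in FO libraries (log2 -1.12 in CPM, SE 0.19, adjusted p = 0.000307). Both Igkv17 genes fell as well. In Igkv10, 2 of 3 genes fell, and Igkv10-95, named after its value was seen, was called higher on the usage scale alone (log2 0.44). Igkv10-96, the most used kappa gene of 5 of the 6 FO libraries, was at 2.44, 2.23 and 2.57% in MZ CKO, 2.26, 2.602 and 2.503% in MZ Control, 4.01, 3.75 and 3.79% in FO CKO and 3.96, 4.32 and 4.31% in FO Control libraries. The ranges did not overlap (log2 -0.91 in CPM, SE 0.08, adjusted p = 2.36e-07).

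**Figure D3:**
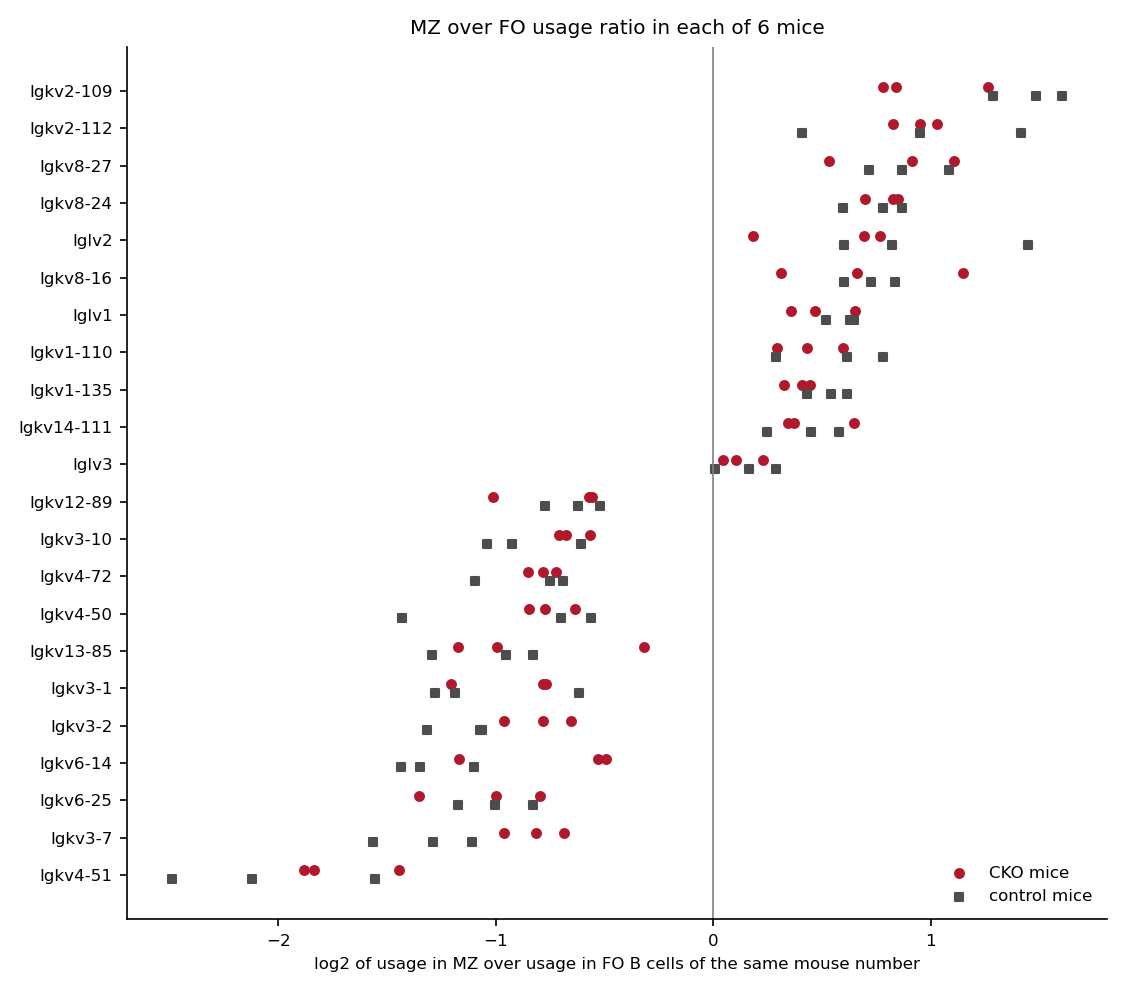
Log2 of usage in MZ over usage in FO B cells for each mouse number, for the V genes named for a difference between the subsets and for the Iglv genes. Circles are the 3 CKO mice and squares the 3 control mice; Igkv2-109 lies right of 0 and Igkv4-51 left of 0 in all 6.

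The length of CDR-L1 was set beside the differences between MZ and FO B cells. Of the 98 genes, 96 had both the cysteine codon before and the tryptophan codon after CDR-L1 in the reading frame, and the codons between them were counted. The Igkv genes with 16 codons, of the Igkv1 and Igkv2 families, summed to 14.9, 15.2 and 15.9% in MZ CKO, 16.6, 14.2 and 15.9% in MZ Control, 11.3, 11.8 and 10.9% in FO CKO and 10.1, 10.4 and 10.9% in FO Control libraries. Those with 17 codons, of Igkv7 and Igkv8, summed to 9.92 ± 0.935% in MZ and 7.18 ± 0.518% in FO libraries (SD, n = 6 each). The shorter classes lay the other way: 11 codons at 31.4 ± 0.752% in MZ and 38.7 ± 0.965% in FO libraries, 10 codons at 6.37 ± 0.474% in MZ and 8.13 ± 0.509% in FO libraries, and 12 codons at 3.39 ± 0.161% in MZ and 4.23 ± 0.274% in FO libraries. The 9 Igkv3 genes have 15 codons and summed to 6.19 ± 1.16% in MZ and 10.4 ± 1.45% in FO libraries, so length alone did not order the classes.

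On the usage scale, 5 of the 10 genes with 16 codons rose and 0 fell, and 6 of the 10 with 17 codons rose and 1 fell, where 31.5% of all genes rose and 7.43% fell. Among the 39 genes with 11 codons 3 rose and 20 fell, among the 15 with 10 codons 0 rose and 7 fell, and among the 10 with 12 codons 0 rose and 5 fell. Of the 9 with 15 codons, 0 rose and 6 fell. Across the 71 Igkv genes with at least 0.2% mean usage, Spearman's rho between CDR-L1 codons and the log2 usage ratio was 0.33 (Pearson's r 0.42). Genes of 1 family share both length and sequence, so these genes are not independent points.

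The CDR-L1 codons of genes that rose in MZ B cells are shown to make those lengths visible, in capitals between the cysteine codon and the tryptophan codon in lower case (GENCODE release M21, GRCm38, all on chromosome 6).
Igkv2-109: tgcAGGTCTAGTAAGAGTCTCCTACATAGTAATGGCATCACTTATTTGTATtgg
Igkv2-112: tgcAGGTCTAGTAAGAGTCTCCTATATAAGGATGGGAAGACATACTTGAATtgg
Igkv1-135: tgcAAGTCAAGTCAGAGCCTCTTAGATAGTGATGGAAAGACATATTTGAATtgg
Igkv1-110: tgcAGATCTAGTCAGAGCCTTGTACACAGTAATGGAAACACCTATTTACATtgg
Igkv8-27: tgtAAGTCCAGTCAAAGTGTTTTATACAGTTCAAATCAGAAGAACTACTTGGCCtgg
Igkv8-24: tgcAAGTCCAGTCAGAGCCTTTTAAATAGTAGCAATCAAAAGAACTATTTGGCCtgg
Igkv8-16: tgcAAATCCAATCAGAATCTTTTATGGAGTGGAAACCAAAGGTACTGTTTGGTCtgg
Igkv14-111: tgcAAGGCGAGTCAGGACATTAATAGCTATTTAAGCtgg

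Of the 48 genes that fell in CPM, 10 with large changes are shown in the same way; the Igkv3 genes among them have 15 codons and the others 10 to 12. Igkv8-21, which is not shown and is named after its value was seen, has 17 codons and fell on both scales (log2 -0.59 in CPM and -0.42 in usage).
Igkv4-72: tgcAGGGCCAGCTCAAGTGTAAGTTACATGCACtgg
Igkv4-50: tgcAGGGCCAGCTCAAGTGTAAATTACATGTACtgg
Igkv4-51: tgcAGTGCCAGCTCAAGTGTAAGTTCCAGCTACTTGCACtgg
Igkv6-25: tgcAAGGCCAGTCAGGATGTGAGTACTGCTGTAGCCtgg
Igkv6-14: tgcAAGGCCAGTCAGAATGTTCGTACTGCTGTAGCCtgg
Igkv13-85: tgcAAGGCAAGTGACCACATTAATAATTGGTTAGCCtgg
Igkv12-89: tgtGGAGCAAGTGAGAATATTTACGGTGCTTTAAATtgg
Igkv10-96: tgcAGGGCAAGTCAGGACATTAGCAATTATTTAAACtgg
Igkv3-2: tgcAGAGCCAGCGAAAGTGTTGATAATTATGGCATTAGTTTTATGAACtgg
Igkv3-7: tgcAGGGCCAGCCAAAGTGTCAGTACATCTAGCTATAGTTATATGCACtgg

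**Figure D4:**
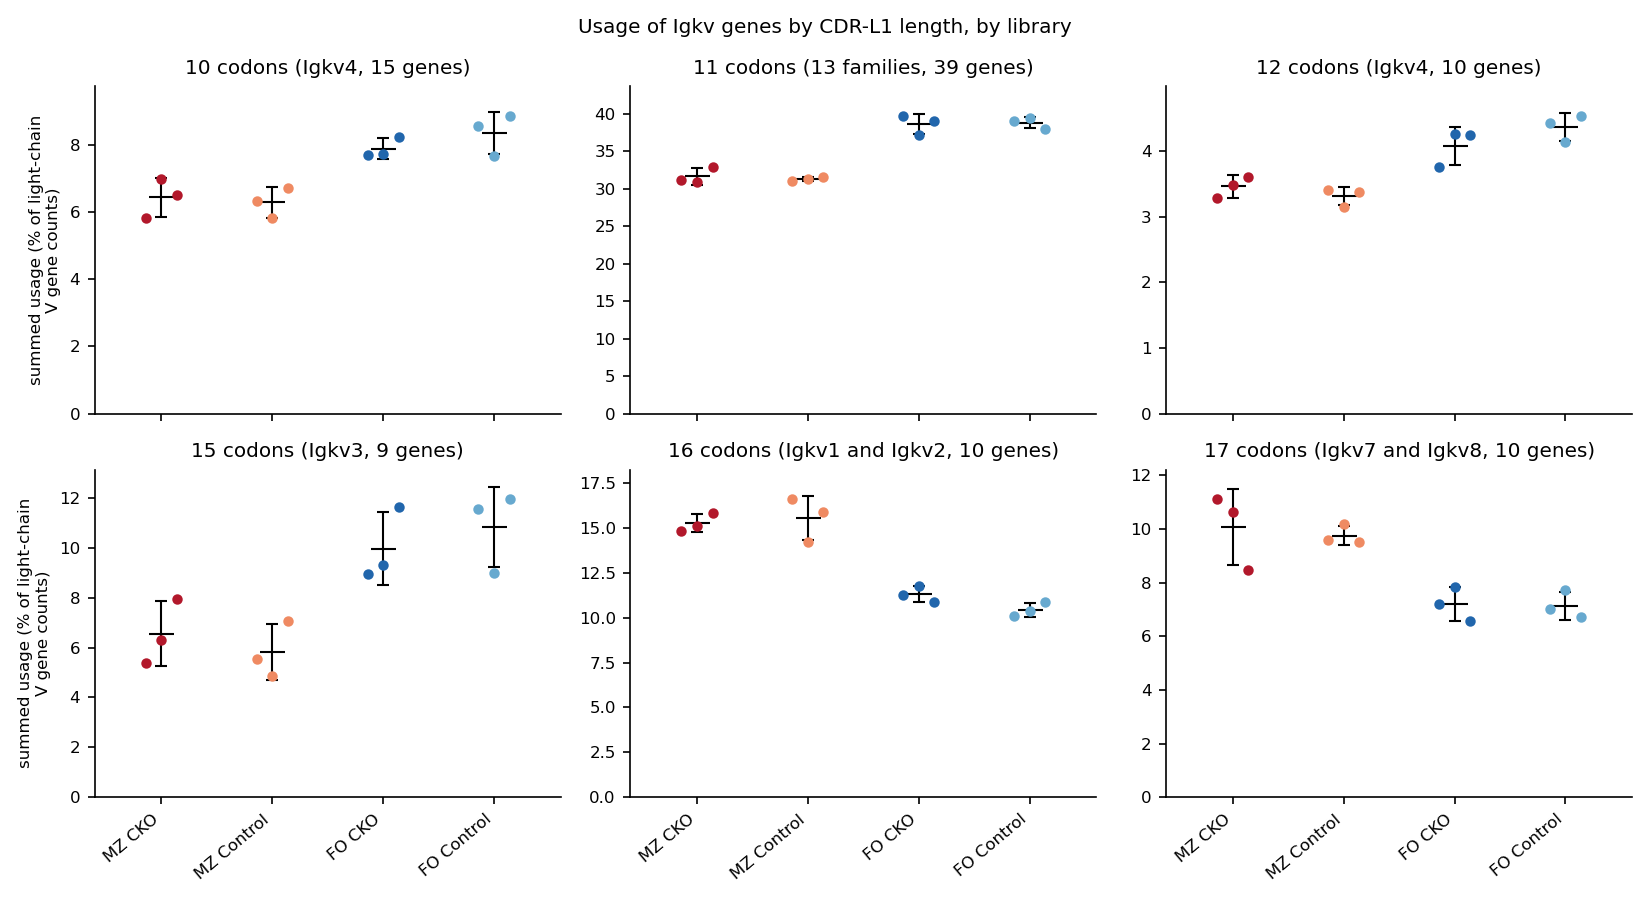
Summed usage, as percent of light-chain V gene counts, of Igkv genes grouped by the number of CDR-L1 codons, for each library. Points are the 3 libraries of each group and black bars the mean ± SD; the classes of 16 and 17 codons lie higher, and the other 4 lower, in all MZ than in all FO libraries.

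Position in the kappa locus was described because further kappa joining draws on the V segments that remain upstream. The 31 Igkv genes farthest from Igkc, 1891 to 3116 kb away, summed to 31.2 ± 1.28% in MZ and 28.9 ± 0.968% in FO libraries, with 8 genes up and 8 down on the usage scale. The 32 genes in the middle summed to 16.1 ± 0.645% in MZ and 20.4 ± 0.665% in FO libraries, with 0 up and 17 down. The 32 genes nearest to Igkc, from 22.3 kb, summed to 25.6 ± 0.890% in MZ and 30.4 ± 1.42% in FO libraries, with 7 up and 14 down. Of all genes tested, 31.5% rose and 7.43% fell on that scale. In each part of the locus the share that rose lay below that of all genes and the share that fell above it. Across the 71 genes Spearman's rho between distance and the log2 usage ratio was 0.35. CDR-L1 length and position go together along most of the locus. Genes with 15 codons lay 22.3 to 208 kb from Igkc, and those with 17 codons 339 to 682 kb. Those with 10 or 12 codons lay 1025 to 1971 kb away, and those with 16 codons 1863 to 3116 kb. Only the genes with 11 codons were spread widely, from 268 to 2935 kb. Between 339 and 682 kb from Igkc, 6 of 9 Igkv8 genes with 17 codons rose and 1 fell on the usage scale, and of the 9 Igkv6 genes with 11 codons, at 268 to 652 kb, 1 rose and 5 fell. Far from Igkc, both Igkv17 genes with 11 codons, at 2689 and 2865 kb, fell. Igkv1-110 and Igkv1-135 with 16 codons, at 2455 and 3116 kb, rose. Other genes did not follow that order: Igkv14-111 with 11 codons, at 2470 kb, rose, and Igkv1-122 with 16 codons was not called. The parts of length and position in these differences were not tested.

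CKO and control mice are separate animals and each gave the MZ against FO comparison on its own. In CKO mice 5 of 96 tested V genes rose and 31 fell in CPM, where 10.5% of 17712 genes rose and 7.78% fell. In control mice 7 of 96 rose and 38 fell, where 14.9% of 17830 genes rose and 13% fell. The medians of the V genes were -0.37 in CKO mice and -0.45 in control mice (log2 CPM). On the usage scale 8 rose and 18 fell in CKO mice, where 14.4% and 3.53% of all genes did, and 12 rose and 28 fell in control mice, where 22.1% and 5.01% did. In CKO mice the count in CPM was 21 without FO CKO replicate 1, against 36 with all libraries. With the mouse as a block it was 55 in CKO mice, 11 up and 44 down, where 19.2% of all genes rose and 16.6% fell.

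In CPM, 29 genes fell in both genotypes, 93.5% of those that fell in CKO mice and 76.3% of those that fell in control mice. The genes that rose in both numbered 4, or 80% of the calls in CKO mice and 57.1% of those in control mice, and 0 were called in opposite directions. These 4 were Igkv2-109, Igkv2-112, Igkv8-27 and Igkv8-24. How large a part of the calls among all genes was shared by both genotypes was not counted here. The shared part is therefore not read as particular to V genes. Among the 74 V genes with at least 0.2% mean usage, 68 had a usage ratio on the same side of 1 in both genotypes. Pearson's r between the log2 ratios was 0.95 across those 74 genes and Spearman's rho 0.95, which describes genes of shared libraries and not independent replicates. Within mice, MZ usage was higher in all 6 mice for 18 of the 98 V genes and lower in all 6 for 41. Every MZ library lay above every FO library for 9 of them and below for 27. The counts within mice and over libraries were not made for all genes. They therefore do not set V genes apart from other genes.

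**Figure D5:**
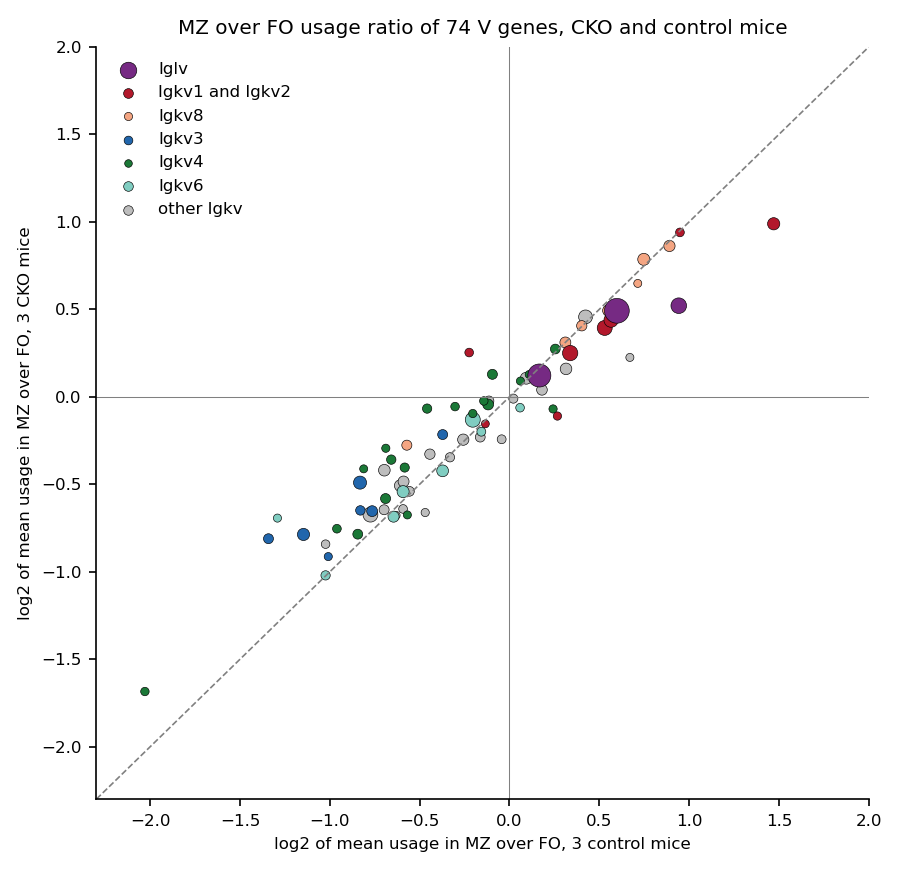
Log2 of mean usage in MZ over mean usage in FO B cells, in CKO mice (vertical) and control mice (horizontal), for the 74 V genes with at least 0.2% mean usage. Point area grows with mean usage, colours mark families and the dashed line marks equal ratios; 68 genes have the same sign in both.

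The comparison of CKO with control mice asks whether loss of Zbtb24 goes with other V gene usage. Low counts left 93 of the 98 V genes in the MZ fit and 97 in the FO fit. In MZ B cells 0 of 93 passed in either direction, where 0.0566% of 17658 genes rose and 0.0227% fell. In FO B cells 0 of 97 passed, where 0.0563% of 17777 genes rose and 0.0338% fell. At an unadjusted p under 0.05 there were 7 V genes in MZ B cells, or 7.53%, where 2.9% of all genes tested lay, and 5 in FO B cells, or 5.15%, where 4.03% of all genes lay. DESeq2 also called 0 in both. The median log2 difference of the V genes was 0.17 in MZ and 0.07 in FO B cells, against 0.00 and 0.01 for all genes. The Iglv shares of MZ CKO and MZ Control libraries overlapped, at 26.3 ± 1.91% and 27.7 ± 2.32%, as did those of FO CKO and FO Control libraries, at 20.7 ± 1.34% and 19.8 ± 1.47% (SD, n = 3 each).

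The V gene with the smallest p between genotypes in FO B cells was Igkv2-109, given above by library, whose FO CKO libraries all lay above the FO Control libraries (log2 0.48 in CPM, SE 0.11, adjusted p = 0.691). In MZ B cells its CKO and control libraries overlapped. Igkv1-135 was higher in all CKO than in all control libraries of FO B cells, and its MZ CKO and MZ Control values overlapped in usage; neither difference passed (log2 0.31 with adjusted p = 0.9995 in FO and 0.24 with adjusted p = 1 in MZ, both in CPM). Igkv6-29, named after its value was seen, had higher usage in all CKO than in all control libraries of both cell types. It was at 0.107, 0.0894 and 0.101% in MZ CKO and 0.0508, 0.0376 and 0.0726% in MZ Control libraries. In FO CKO it was at 0.0700, 0.0558 and 0.0766%, and in FO Control libraries at 0.0366, 0.0330 and 0.0280%. It rests on 11 to 48 counts per library and did not pass. A p that misses the threshold does not show that usage was alike. For Iglv1 the difference of CKO and control was 0.07 in MZ (SE 0.21) and 0.11 in FO B cells (SE 0.13), both in log2 CPM.

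The difference between both genotype effects was tested over all 12 libraries, and 0 of 98 V genes passed, as did 0% of the 18546 genes tested in each direction. DESeq2 called 0 as well. At an unadjusted p under 0.05 there were 3 V genes, Igkv2-109, Igkv3-7 and Igkv3-3, the last named after its value was seen; these are 3.06% of the V genes, where 1.28% of all genes tested lay under that p. The ratio of MZ to FO usage of Igkv2-109 was 1.72, 1.79 and 2.40 in CKO mice and 3.04, 2.44 and 2.80 in control mice, and for Igkv3-7 it was 0.513, 0.621 and 0.568 in CKO mice and 0.338, 0.463 and 0.409 in control mice. In both genes the CKO mice lay nearer to 1 than the control mice did. Both were picked by that p, so their ratios restate the test and add no support to it. The log2 ratio of mean usage was also smaller in CKO mice for Iglv2 (0.52 against 0.94 in control mice). For Igkv8-24 it was not (0.79 against 0.75). The tests of that difference gave log2 -0.44 (SE 0.17, adjusted p = 1) for Igkv2-109 and 0.57 (SE 0.24, adjusted p = 1) for Igkv3-7.

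Mice of 1 group differed in usage, and the deviations were partly shared by the MZ and FO libraries of a mouse. For 74 V genes, the deviation of each library from the mean of its cell type, on the log2 usage scale, correlated between the MZ and FO library of the same mouse with Pearson's r of 0.23 to 0.68 (median 0.53), and between different mice with -0.44 to 0.33 (median -0.14). Deviations within a cell type cancel out over its mice, which pulls the values between different mice toward negative ones. The negative median is therefore not a result. Genotype was not taken out of the deviations. Of the 6 MZ libraries, 5 correlated best with the FO library of their own mouse. Ranks of usage were close throughout, with Spearman's rho of 0.974 to 0.989 between MZ libraries, 0.971 to 0.986 between FO libraries and 0.923 to 0.967 between an MZ and an FO library.

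Among V genes with at least 0.5% usage in a library, the widest spread within a group was that of Igkv1-122, at 0.264, 0.498 and 0.239% in MZ CKO libraries and 0.206, 0.653 and 0.221% in FO CKO libraries. The same mouse, CKO replicate 2, was the high one in both cell types. Igkv5-43 was at 1.65, 2.52 and 1.34% in MZ Control and 1.59, 2.43 and 1.15% in FO Control libraries, with the second control mouse high in both. Markers of other cells differed between these mice as well. All 5 macrophage markers were highest in replicate 2 of every group, with summed levels of 76.1, 144 and 97.8 CPM in MZ CKO, 77.1, 146 and 88.4 CPM in MZ Control, 87.2, 179 and 129 CPM in FO CKO and 69.7, 163 and 122 CPM in FO Control libraries. Of 5 neutrophil markers, 4 or 5 were highest there in each group, of 5 dendritic cell markers 3 or 5, and of 5 T cell markers 0 to 5. Of 14 plasma cell genes, 9 were highest in replicate 2 and 2 lowest in MZ CKO, 9 and 4 in MZ Control, 10 and 2 in FO CKO, and 4 and 6 in FO Control libraries. The part of these cells in the deviations of V usage was not tested. Igkv1-88 was at 0.382, 0.484 and 0.261% in MZ Control and 0.651, 0.344 and 0.321% in FO Control libraries. Igkv4-86 was at 0.455, 0.567 and 0.285% in MZ CKO libraries and 0.519, 0.377 and 0.462% in FO CKO libraries. Igkv4-50 was at 0.299, 0.332 and 0.3298% in MZ Control and 0.441, 0.538 and 0.8896% in FO Control libraries. The most used kappa gene of a library held 3.81 to 4.37% of V counts in MZ and 3.75 to 4.69% in FO libraries.

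Genes of other steps of light-chain expression differed between the subsets as well. Of the 7 surrogate light chain and recombination genes, 3 were abundant enough to test, and Vpreb3, which encodes a surrogate light chain-like protein kept in mature B cells, was at 29.98 ± 8.96 CPM in MZ CKO, 22.5 ± 2.43 CPM in MZ Control, 59.9 ± 8.98 CPM in FO CKO and 61.1 ± 2.89 CPM in FO Control libraries (MZ against FO log2 -1.22, adjusted p = 8.39e-05). Vpreb2 had no count. Rag1, a subunit of the recombinase, stayed under 2 CPM and did not pass in any comparison. Ighm rose by 0.42 on the log2 scale (adjusted p = 0.000137) and Ighd fell by 1.91 (adjusted p = 1.96e-10) in MZ libraries. Between CKO and control mice 0 genes of these lists passed in either cell type.

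Plasma cells hold much light-chain RNA, and their genes were read for that reason. Of 14 plasma cell genes, 4 rose and 2 fell in MZ libraries, where 20.3% of all genes rose and 18.6% fell. Their median log2 was -0.52 in CPM, against -0.01 for all genes. Their summed level, to which abundant genes add most, was 1120, 1340 and 1075 CPM in MZ CKO and 1155, 1338 and 1076 CPM in MZ Control libraries. It was 760.8, 1281 and 877.7 CPM in FO CKO and 1107, 1130 and 1181 CPM in FO Control libraries. The sum was higher in the MZ than in the FO library of each mouse number except control replicate 3, so median and sum differed in direction. By mean CPM, Mzb1 and Irf4 were the largest parts of that sum in both MZ groups. Mzb1, a chaperone cofactor known to be high in MZ B cells too, rose (log2 1.53 in CPM, SE 0.07, adjusted p = 1.17e-10), as did Prdm1 (adjusted p = 4.42e-07), a transcription factor of plasma cells that was at 10.3, 8.71 and 10.5 CPM in MZ CKO, 9.003, 9.699 and 8.49 CPM in MZ Control, 2.68, 3.38 and 3.62 CPM in FO CKO and 2.29, 3.95 and 4.15 CPM in FO Control libraries. Irf4 rose too (log2 0.47 in CPM, SE 0.05, adjusted p = 7.91e-07), and Sdc1, the plasma cell surface marker CD138, fell (log2 -2.24 in CPM, SE 0.18, adjusted p = 7.92e-07). T cell markers fell in MZ libraries, 5 of 5, with summed levels of 62.9 to 100.3 CPM in MZ CKO, 70.4 to 117 CPM in MZ Control, 106 to 152 CPM in FO CKO and 151 to 169 CPM in FO Control libraries. Of 5 B-1 cell markers, Bhlhe41 rose (log2 1.07) and Cd5 (log2 -0.42) and Spn (log2 -0.79) fell, with summed levels of 152 to 228 CPM in MZ CKO, 144 to 203 CPM in MZ Control, 197 to 276 CPM in FO CKO and 218 to 256 CPM in FO Control libraries. The part of these cells in the differences of V usage was not tested.

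Similar V genes limit how finely usage can be read. The V exon of each of the 98 genes was compared with those of all other annotated Igkv and Iglv genes, including pseudogenes and genes outside the rule. Identity to the nearest of them was 94.9% at the median, and 14 genes had a neighbour at 97% or more. The closest pair was Igkv5-43 and Igkv5-45, at 98.99%. Reads listed as not uniquely placed made up 23.9 to 28.7% of all listed reads in MZ and 19.6 to 27.7% in FO libraries, and how many of them came from V genes was not analysed here. No V gene shared exon bases with another annotated gene, and Iglv1 lies inside an intron of the antisense transcript 2010309G21Rik.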

How the data were processed

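RNA from 12 libraries of splenic B cells was made into sequencing libraries with Illumina's TruSeq kit, per the labels' protocols. Per Ensembl gene, the authors deposited whole-number read counts without normalization, made with TopHat, HTSeq and DESeq2 on GRCm38 (mm10), the tools and build per the submitters' processing notes, which give no versions. Annotation release, strand setting and treatment of multiply placed reads are not given in the sources used here, so reads of near-identical V genes or of an antisense neighbour may be counted with either. Entries naming no gene held 43.2 to 50.4% of listed reads and stayed out of library sizes and tests. GENCODE M21 (GRCm38) supplied symbols, biotypes and V exon sequences. Recombination signals, promoters and proteins were not analysed here.

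Usage was computed as percent of all Igkv and Iglv counts, with 95% Wilson intervals that cover counting error only, since reads carry no molecular identifiers. Counts were tested in edgeR 4.0.16 (R 4.3.3, limma 3.58.1) with TMM scaling, filterByExpr, robust quasi-likelihood fits, two-sided tests and Benjamini-Hochberg adjustment over all genes tested, at 0.05. A second scaling set library sizes to light-chain V counts. Alternatives were DESeq2 1.42.0, no filter, the non-robust fit, the replicate block (the mouse where MZ and FO were compared, the replicate number where CKO and control were) and leaving out each library. The test was checked on simulated data. Replicates carry separate mouse numbers, and where these are not separate animals p-values measure only the spread between samples. The MZ and FO libraries of a number deviated from their group means together (r 0.43 to 0.65 over all genes), as did FO CKO and FO Control libraries of the same replicate number (r 0.10 to 0.36), where the block changed no call. Of the 3 MZ CKO and MZ Control pairs, 1 lay under the 0.1 required (r -0.07 to 0.37), so these were not taken as paired.

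Genes were named by rule: the 10 most used V genes, all Iglv genes, up to 10 per direction and comparison with the largest log2 change among those that passed at 0.2% usage or more, the 5 with the widest spread within a group at 0.5% usage or more, and up to 4 genes of each related list. The V genes, lists and rules were chosen with earlier results of these data known. No count, sum or median over V genes was given a p.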

Additional observations from a re-analysis of the deposited data

How the results depend on the processing

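The number of V genes past the threshold between MZ and FO libraries ran from 50 to 57 over all mice and from 36 to 46 in control mice when each library was left out, and from 21 to 29 in CKO mice, lowest without FO CKO replicate 1, against 36 with all libraries. With the replicate block, here the mouse, it was 65 over all mice, 66 in control mice and 55 in CKO mice, so the last count moved by more than 1.5 times. In CKO mice the block also raised the calls among all genes, from 10.5% up and 7.78% down to 19.2% and 16.6%. For the other counts of this kind the share of all genes called is not given here, so they are not read as particular to V genes. The block and every library left out gave 0 V genes between CKO and control in either cell type and 0 for the difference of both effects. For Iglv3 the log2 difference of MZ and FO turned positive with library sizes set to light-chain V counts (0.14), without MZ Control replicate 3 (0.031) and without FO Control replicate 2 (0.0065), and leaving out single libraries gave -0.139 to 0.0312; its log2 usage ratio likewise became -0.0396 in CPM. The lambda share read from constant genes was 32.09% in MZ CKO, 33% in MZ Control, 23.21% in FO CKO and 21.79% in FO Control libraries, and the effective number without the most counted V gene was 50.52 in MZ CKO, 49.08 in MZ Control, 56.83 in FO CKO and 56.01 in FO Control libraries. Dividing counts by V exon length, a choice made after the data were seen, gave Iglv shares of 25.96% in MZ CKO, 27.31% in MZ Control, 20.23% in FO CKO and 19.38% in FO Control libraries. The cause of these moves was not tested. Among values of single genes under an alternative, 481 stayed the same, 17 lost and 6 gained the call, 10 moved and 4 reversed. For a tested log2 change, the same means that direction and side of the threshold were kept. Usage ratios have no threshold, and for them it means a shift smaller than the SD of the log2 ratio over mice. At 30324 to 51407 V counts per library, genes under 0.1% usage rest on few counts.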
